A study of Mus musculus with 84 samples.

Results

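The 7 genes described here are *Gdf10*, *Mybpc1*, *Wif1*, *Hopx*, *Gria1*, *Gria4* and *Timp4*, a set of genes associated with Bergmann glia. They were followed by Ensembl identifier in sorted mouse astrocytes and in cultured ones. An experiment on experimental autoimmune encephalomyelitis (EAE) listed 48526 genes and an experiment on astrocyte subtypes listed 25773 genes. The set was selected on measured levels, above all the high levels in one population of the subtype experiment, so those levels are a description and carry no test. Results of the EAE experiment were also known when the set was put together. All 7 genes passed the filter on low counts in both experiments.

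Bergmann glia are the unipolar astrocytes of the cerebellar cortex. Their cell bodies lie beside the Purkinje cells and their radial processes cross the molecular layer, where they wrap the synapses of parallel and climbing fibres. They clear glutamate with the transporter GLAST, encoded by *Slc1a3*, and sense it through calcium-permeable AMPA receptors built from the subunits that *Gria1* and *Gria4* encode, without the GluA2 subunit that blocks calcium entry.

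Both experiments used wild-type mice without a transgene. Live cells negative for the myeloid and leukocyte proteins CD11B and CD45 and positive for ACSA-2, the astrocyte surface protein encoded by *Atp1b2*, were sorted and divided by surface GLAST into GLASTpos and GLASTneg cells. A library held RNA of 1 mouse or a pool of 2, and the 3′ ends of transcripts were sequenced. For the EAE experiment, female C57BL/6J mice of 10 weeks were immunized with the myelin peptide MOG35-55 in complete Freund's adjuvant and were given pertussis toxin. Unimmunized mice served as controls (C), and immunized mice were taken at clinical score 1 with a limp tail (E1), at score 4 with paralysed hind legs (E4) and in the chronic stage (Ech). Hindbrain, which was cerebellum together with brain stem, gave 5, 6, 6 and 4 GLASTpos libraries at these stages and 5, 6, 6 and 6 GLASTneg libraries. Cervical and thoracic spinal cord was sorted for GLASTneg cells only and gave 5, 5, 6 and 6 libraries. In the subtype experiment FVB/N mice gave 3 libraries under each of 5 labels, forebrain and hindbrain GLASTneg and GLASTpos and spinal cord GLASTneg, and 3 libraries of astrocytes grown from the cerebrum of newborn C57BL/6J mice. The ages of the FVB/N mice were not given in the sources used here. Libraries of the EAE experiment held 1313682 to 4895220 counts, isolated FVB/N libraries 416768 to 1269316 and cultured libraries 2183464 to 8188074.

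Levels are counts per 1e6 counts (CPM) after TMM scaling. A level of 3 counts or fewer was taken as not detected, which corresponded to 0.634 to 2.44 CPM in the EAE experiment and to 2.45 to 7.05 CPM in isolated FVB/N libraries. These floors cover counting error only. A gene was called changed when its log2 fold change lay above 1 or below -1 with an adjusted p under 0.05 in edgeR's two-sided quasi-likelihood test, with Benjamini-Hochberg adjustment over all 23324 genes tested in the EAE experiment. All adjusted p-values below come from that test unless another is named, and errors of log2 fold changes are standard errors (SE).

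By role, *Gdf10* encodes a secreted ligand of the TGF-beta family (growth differentiation factor 10) and *Wif1* a secreted inhibitor that binds WNT ligands. *Hopx* encodes a homeodomain protein that does not bind DNA by itself, *Mybpc1* the slow-muscle myosin-binding protein C, and *Timp4* a secreted inhibitor of matrix metalloproteinases. In GRCm38, *Gdf10* lies on the plus strand of chromosome 14 at chr14:33923587-33937983, *Mybpc1* on the minus strand at chr10:88518279-88605152 and *Wif1* on the plus strand at chr10:121033960-121100650. *Hopx* occupies chr5:77086988-77115121 (minus), *Gria1* chr11:57011387-57330244 (plus), *Gria4* chr9:4417896-4796234 (minus) and *Timp4* chr6:115241892-115252205 (minus). *Timp4* shares exon sequence with *Syn2* and *Hopx* with the antisense gene *Hopxos* on the opposite strand, and *Mybpc1* with the unclassified gene *Gm48752*. Whether the counting used strand is not given in the sources used here, so reads of these genes and of their partners may not have been told apart. On the same strand, *Gria4* shares exon sequence with the microRNA gene *Gm23811*, where counting by strand could not separate shared reads.

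RefSeq promoter entries (GRCm38.p6) were matched for 6 of the 7 genes, *Hopx* with 2 entries. *Gria1* is named only. The 250 bases before the start of *Gdf10* (chr14:33923337-33923586, plus strand), *Mybpc1* (chr10:88605153-88605402, minus strand) and *Wif1* (chr10:121033754-121034003, plus strand) are printed 5′ to 3′, since these were the genes with the largest fold changes between hindbrain GLASTpos and GLASTneg astrocytes. The RefSeq start of *Wif1* lies downstream of the Ensembl start given above, so its last printed bases are inside the Ensembl gene. Capitals mark matches on either strand to the GC box GGGCGG or to TATAAA.
Gdf10: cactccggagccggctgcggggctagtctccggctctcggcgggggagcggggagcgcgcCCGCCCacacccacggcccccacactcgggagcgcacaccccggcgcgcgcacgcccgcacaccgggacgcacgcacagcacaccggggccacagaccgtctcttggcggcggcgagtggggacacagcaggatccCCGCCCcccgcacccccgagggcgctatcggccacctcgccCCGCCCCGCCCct
Mybpc1: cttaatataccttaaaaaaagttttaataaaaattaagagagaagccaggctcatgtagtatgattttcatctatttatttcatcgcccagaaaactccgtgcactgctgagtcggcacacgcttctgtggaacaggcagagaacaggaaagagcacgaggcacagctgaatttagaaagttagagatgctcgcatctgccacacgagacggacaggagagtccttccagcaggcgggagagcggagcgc
Wif1: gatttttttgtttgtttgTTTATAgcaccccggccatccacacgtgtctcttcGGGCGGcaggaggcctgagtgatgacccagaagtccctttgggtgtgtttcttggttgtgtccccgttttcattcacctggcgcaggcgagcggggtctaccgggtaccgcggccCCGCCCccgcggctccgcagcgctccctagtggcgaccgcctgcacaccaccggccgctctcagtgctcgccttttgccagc
These 3 promoters did not share the marked elements. *Gdf10* had 4 GC boxes, of which the last pair overlap, *Wif1* had 2 GC boxes and 1 TATAAA, and *Mybpc1* had no match. GGGCGG was present in 32.7% and TATAAA in 12.4% of all 32851 promoters of this length. CCAAT was found upstream of *Gria4* and in both *Hopx* promoters, against 33.8% of all promoters. No promoter of the set held GACCACCCA (GLI), ACAATGG (SOX), TGGGAA (RBPJ) or TTGGCA (NFI), which 0.225%, 3.02%, 21.6% and 12.3% of all promoters held.

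In FVB/N mice all 7 genes were highest in the same 3 libraries, which the sample labels name spinal cord GLASTneg. *Gdf10* reached 1815, 2436 and 2669 CPM there, *Mybpc1* 187.2, 169.4 and 260.0 CPM, and *Wif1* 116.5, 203.8 and 103.1 CPM. *Hopx* stood at 1879, 1068 and 1314 CPM, *Gria1* at 1782, 1574 and 1611 CPM, *Gria4* at 933.5, 870.4 and 683.3 CPM, and *Timp4* at 3988, 3081 and 2051 CPM. No range of these 3 libraries overlapped that of another FVB/N group. For every gene the next group was the one labelled forebrain GLASTpos, at means of 88.6 ± 11.8 CPM for *Gdf10*, 27.7 ± 5.95 for *Mybpc1*, 5.37 ± 2.54 for *Wif1* and 884 ± 126 for *Timp4* (SD, n = 3). The mean of the highest group was 26 times that of the next for *Gdf10*, 26.3 times for *Wif1*, 7.43 times for *Mybpc1* and 3.44 times for *Timp4*.

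The labels of the FVB/N libraries were in conflict with another source. In the normalized counts of 500 genes that the authors published with the study, 12 of the 15 isolated libraries carry another group name. A deposited column was matched to a published one by a constant ratio over these genes, with a largest deviation of 0.000492% and a next best match at 87.8%. Under the published names the libraries labelled spinal cord GLASTneg are hindbrain GLASTpos, those labelled hindbrain GLASTpos are forebrain GLASTpos, those labelled forebrain GLASTpos are hindbrain GLASTneg and those labelled hindbrain GLASTneg are spinal cord GLASTneg. Summed *Hox* genes of brain stem and cord amounted to 0 to 16.7 CPM in the libraries labelled spinal cord GLASTneg. There 11 of 13 genes were at or under the floor in all libraries. In the libraries labelled hindbrain GLASTneg the sum was 636 to 723 CPM. Summed cerebellar region genes amounted to 822 to 1181 CPM and 84.6 to 143.0 CPM in the same 2 groups. That list held *Zic* and *En* genes together with *Pax3*, *Barhl1* and *Lhx2*. *Slc1a3*, the gene for GLAST, averaged 10450 CPM in the libraries labelled spinal cord GLASTneg, the highest of the 5 groups.

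The choice of names decided the hindbrain comparison in FVB/N mice. By the sample labels, hindbrain GLASTpos minus GLASTneg was 2.49 for *Gdf10*, 0.78 for *Mybpc1*, 0.35 for *Hopx*, 0.46 for *Gria1*, -1.61 for *Wif1*, -4.01 for *Gria4* and -0.32 for *Timp4* as a difference of log2(CPM + 1). By the published names the same differences were 4.69, 2.85, 3.13, 2.97, 4.48, 2.61 and 1.78 in that order, positive for all 7 genes. No test is given for either set of values. *Wif1* was not detected in the libraries labelled forebrain GLASTneg, hindbrain GLASTneg and hindbrain GLASTpos, so that its mean in the highest group was at least 39.4-fold, 20.0-fold and 40.7-fold higher than the floor of 3 counts in those groups.

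**Figure D1:**
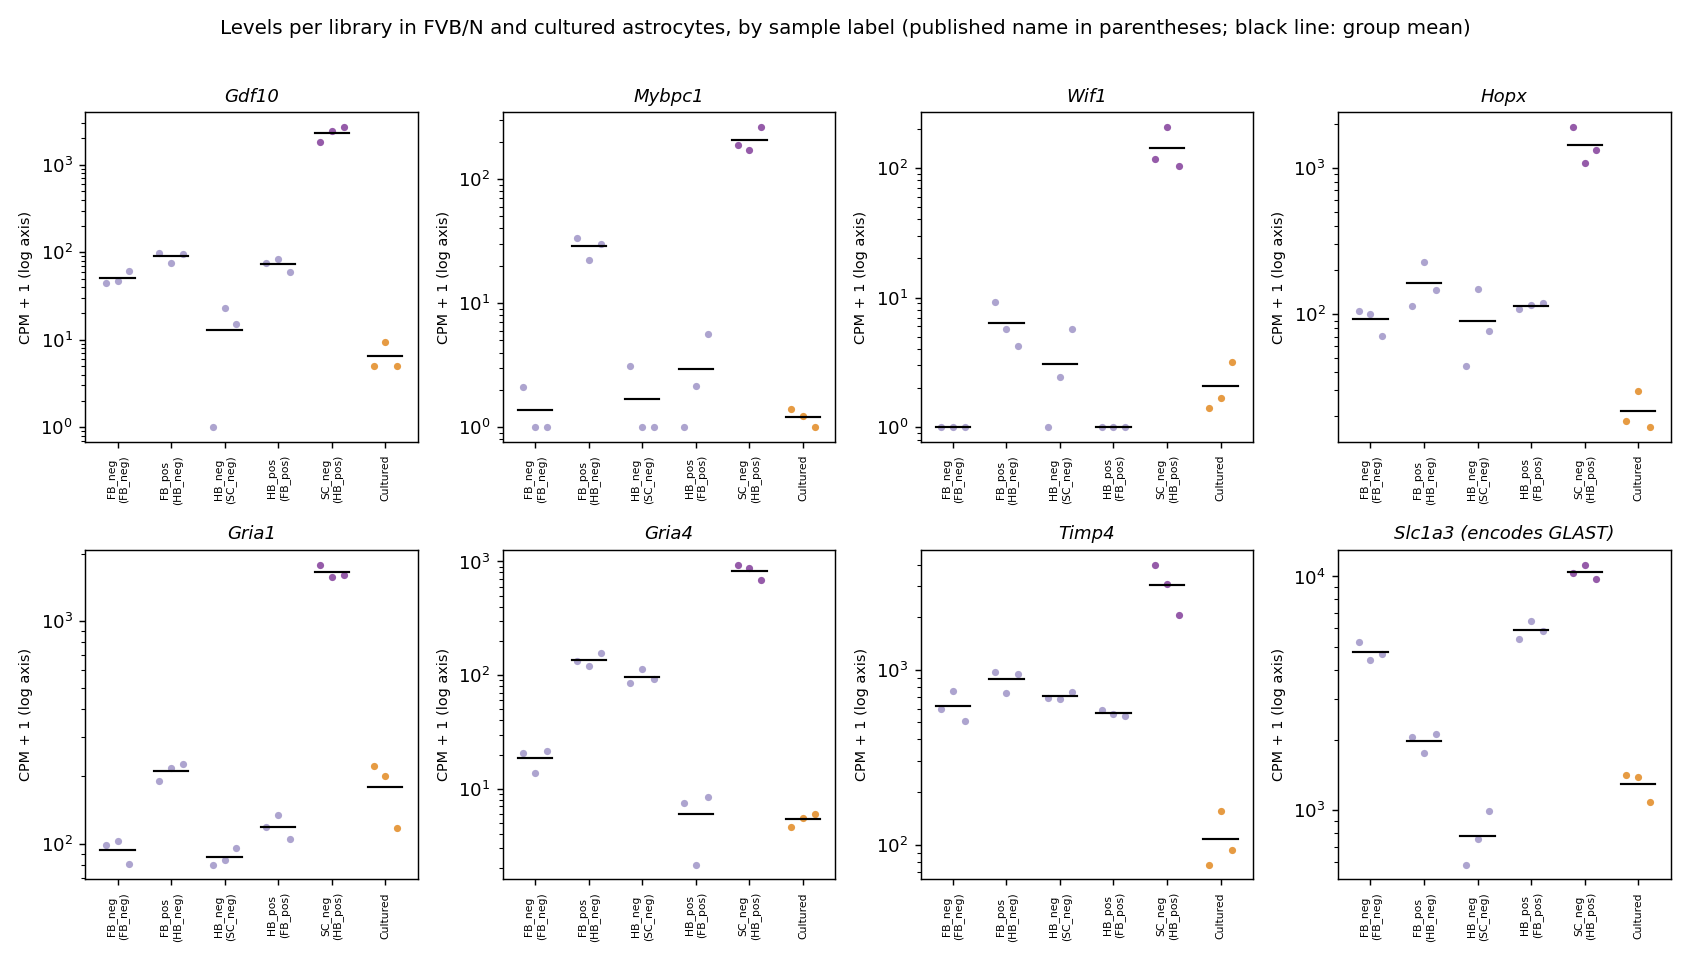
Levels of the 7 genes and of *Slc1a3* in the 15 isolated FVB/N libraries and 3 cultured libraries, as CPM + 1 on a log axis, by sample label with the published name in parentheses (FB, HB and SC for forebrain, hindbrain and spinal cord, pos and neg for GLASTpos and GLASTneg). Points are libraries and black lines are group means. In each panel the 3 libraries labelled spinal cord GLASTneg, named hindbrain GLASTpos in the published table, lie above all other libraries.

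The EAE experiment allowed the populations of the hindbrain to be compared in other mice of another strain. Results of this experiment were known when the set was put together, so its p-values are no independent check of the choice. In unimmunized mice all 7 genes were higher in hindbrain GLASTpos than in hindbrain GLASTneg astrocytes, with no overlap between the 5 libraries of either population. The share of all genes without overlap is not given here or below, so separated ranges are a description. The sort itself was visible, with *Slc1a3* at 7168 ± 1504 CPM in GLASTpos and 1373 ± 245 CPM in GLASTneg libraries (SD, n = 5). Of all 23324 genes tested, 792 or 3.4% were called higher and 1646 lower in GLASTpos astrocytes. The median log2 fold change was 3.26 over the 7 genes and -0.11 over all genes tested. In bulk libraries, more cells that express a gene and more RNA of it per cell cannot be told apart. The library titles also carry an S number, whose meaning the labels do not give. It was 56 or lower in all hindbrain GLASTneg libraries and above 56 in all hindbrain GLASTpos libraries, at every stage. S number and population therefore cannot be told apart.

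Among the secreted factors, *Gdf10* measured 1826, 2234, 1375, 1880 and 1215 CPM in the control GLASTpos libraries and 106.7, 63.95, 81.92, 90.72 and 35.41 CPM in the GLASTneg libraries. The lowest GLASTpos library thus exceeded the highest GLASTneg library more than 10 times. The log2 fold change was 4.49 (SE 0.51, adjusted p = 1.9e-10). *Wif1* measured 50.27, 74.67, 28.06, 40.62 and 97.68 CPM against 5.524, 5.061, 0, 3.809 and 2.81 CPM. It was the lowest of the 7 genes in both populations and lay near the floor in GLASTneg libraries, at a log2 fold change of 4.01 (SE 0.58, adjusted p = 7.1e-07). *Timp4*, abundant in both populations, stood at 1952, 1925, 2062, 1874 and 2036 CPM against 549.5, 799.6, 608.7, 770.1 and 555.9 CPM. Its log2 fold change of 1.58 (SE 0.30, adjusted p = 6e-05) was the smallest of the set.

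Both AMPA receptor subunits were higher in GLASTpos astrocytes. *Gria1* measured 2694, 2571, 2413, 2328 and 2602 CPM in GLASTpos and 470.8, 548.9, 536.8, 601.8 and 510.3 CPM in GLASTneg libraries, a log2 fold change of 2.24 (SE 0.28, adjusted p = 4.7e-09). *Gria4* measured 1471, 1241, 1181, 1220 and 1433 CPM against 186.6, 178.5, 121.9, 210.5 and 139.9 CPM, a log2 fold change of 2.96 (SE 0.29, adjusted p = 9.1e-13). Libraries of a population lay close together for both subunits, so that the gap between populations was several times the spread within them.

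*Mybpc1* measured 459.4, 499.9, 316.5, 375.7 and 387.3 CPM in GLASTpos and 22.95, 20.7, 28.64, 44.67 and 15.74 CPM in GLASTneg libraries, a log2 fold change of 3.93 (SE 0.41, adjusted p = 1.9e-11). *Hopx* measured 678.1, 874.4, 610.6, 698.2 and 684.7 CPM against 125.8, 67.17, 65.93, 53.32 and 56.2 CPM, a log2 fold change of 3.26 (SE 0.29, adjusted p = 7.1e-14). Replicate 1 of the control GLASTneg libraries had the highest value of its group for *Gdf10*, *Wif1* and *Hopx*.

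The difference between the populations was present at each stage of EAE, where S number and population again cannot be told apart. At E1 and E4 all 7 genes were called higher in hindbrain GLASTpos astrocytes and no ranges overlapped, beside 4.1% and 3.07% of all genes. The median log2 fold change of the set was 3.15 at E1 and 2.97 at E4, against -0.10 and -0.09 over all genes. *Gdf10* reached 4.54 (SE 0.46, adjusted p = 3.6e-12) at E1, 4.08 (SE 0.45, adjusted p = 5.4e-11) at E4 and 4.57 (SE 0.48, adjusted p = 9.2e-11) at Ech. *Gria4* stood at 2.78 (SE 0.26, adjusted p = 1.2e-13), 2.39 (SE 0.25, adjusted p = 1.2e-11) and 2.00 (SE 0.27, adjusted p = 5.9e-08), against 2.96 in controls. At Ech 6 of 7 genes were called, beside 4.59% of all genes, with a median of 3.29 against -0.13. The exception was *Timp4*, at 0.99 (SE 0.30, adjusted p = 0.017), which missed the fold threshold. Its 4 GLASTpos libraries spanned 673.5 to 1598 CPM and overlapped the GLASTneg libraries at 552.8 to 683.3 CPM. Without Ech GLASTpos replicate 1 the value was 1.18 (adjusted p = 0.0052) and was called.

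**Figure D2:**
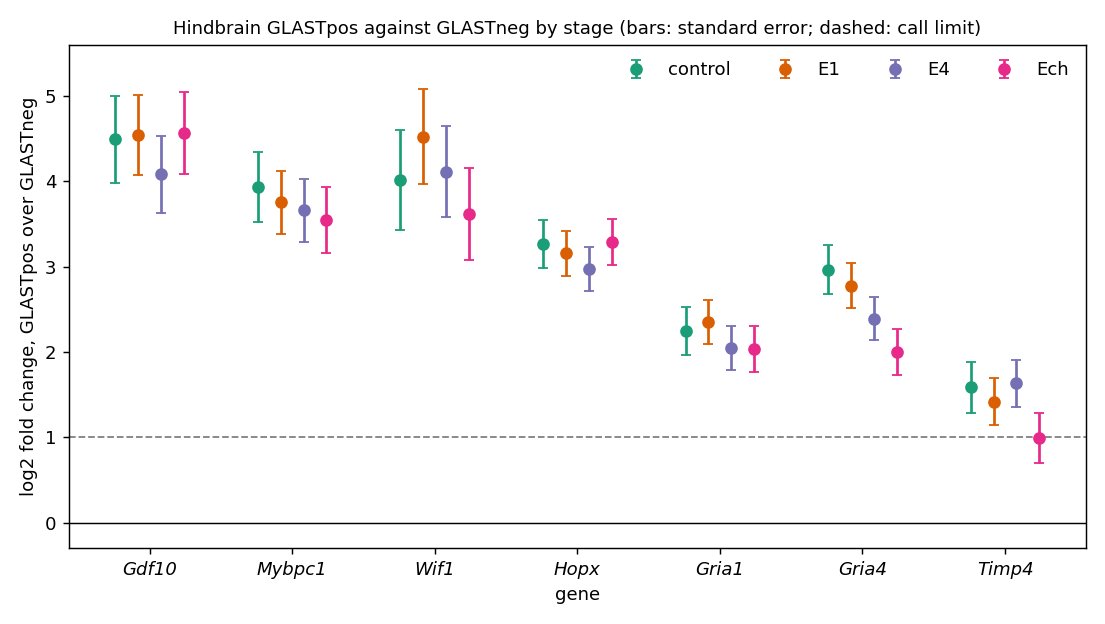
Log2 fold change of hindbrain GLASTpos over GLASTneg astrocytes for each of the 7 genes in controls and at E1, E4 and Ech, with bars of 1 SE from edgeR. The dashed line marks the call threshold of 1. Every value lies above 0, and *Timp4* at Ech (0.99) is the only one under the threshold.

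Over all 12 groups of the EAE experiment, the 4 hindbrain GLASTpos groups held the first 4 places for each of the 7 genes. The lowest of the 21 hindbrain GLASTpos libraries exceeded the highest of the other 45 libraries for 6 genes, with 995.2 against 217.3 CPM for *Gdf10*, 1373 against 666.3 CPM for *Gria1*, 303.7 against 154.0 CPM for *Hopx* and 328.9 against 317.3 CPM for *Gria4*. For *Timp4* these values were 673.5 and 909.3 CPM and overlapped. The share of all genes separated in this way is not given, so the count of 6 genes is a description. Below the first 4 groups, neighbours in the order mostly did not differ beyond their spread. Of 11 neighbouring pairs of groups, those without overlap numbered 3 for *Gria1*, 2 for *Gdf10* and *Gria4* and 1 for each other gene.

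**Figure D3:**
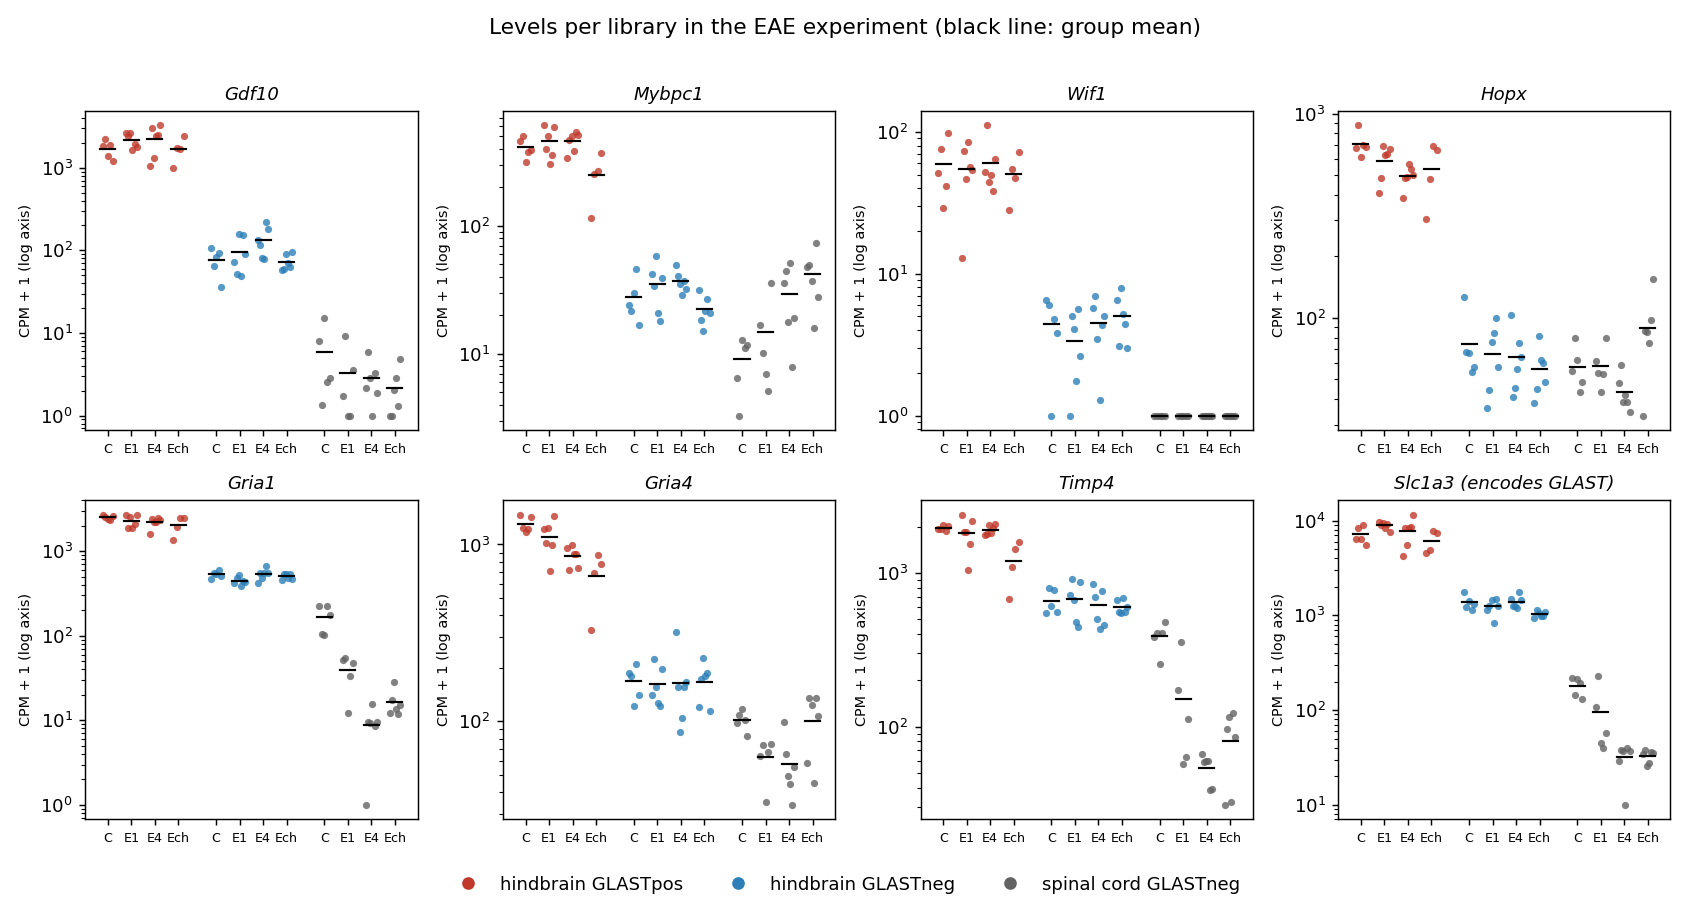
Levels of the 7 genes and of *Slc1a3* in the 66 EAE libraries, as CPM + 1 on a log axis, in hindbrain GLASTpos (red), hindbrain GLASTneg (blue) and spinal cord GLASTneg (grey) astrocytes at C, E1, E4 and Ech. Points are libraries and black lines are group means. The hindbrain GLASTpos groups lie highest in every panel, and *Wif1* had 0 counts in all cord libraries.

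Genes that other work associates with the same cells moved in part with the set. Of 13 other Bergmann glia genes, 9 were called higher and 0 lower in control hindbrain GLASTpos astrocytes, beside 3.4% of all genes called higher. Their median log2 fold change was 1.67. The 13 include *Slc1a3*, whose product GLAST divided the populations in the sort. The list was chosen with earlier results of these data known. Among the largest values were those of *Vim*, an intermediate filament gene of radial glia, at 461 ± 69.5 CPM against 29.7 ± 11.5 CPM (log2 fold change 3.96, SE 0.49, adjusted p = 3.3e-09), and of the septin gene *Sept4* at 1819 against 239 CPM (2.93, SE 0.27, adjusted p = 1.4e-13). Summed cerebellar region genes amounted to 957 to 1332 CPM in GLASTpos and 228 to 312 CPM in GLASTneg libraries, with 6 of 10 called higher. Brain stem and cord genes summed to 0 to 17.2 and 41.03 to 87.61 CPM, with 3 of 14 called lower, beside 1646 of all 23324 genes. Genes of the cerebellum thus moved with the population, and the part of region in the differences of the set was not tested.

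Markers of other cells also moved with the populations. Of all 23324 genes, 1646 were called lower and 792 higher in control GLASTpos astrocytes. Of 10 oligodendrocyte genes 9 were lower and 1, *Cnp*, was higher in control GLASTpos astrocytes, with summed levels of 1170 to 1336 CPM against 1470 to 5103 CPM. Of 10 genes of parenchymal astrocytes 6 were lower, with sums of 11370 to 12630 CPM against 24290 to 30860 CPM. Of 10 genes of granule and Purkinje neurons 0 were called in either direction. The sums of the neuronal genes were 66.6 to 207 CPM in GLASTpos and 68.6 to 157 CPM in GLASTneg libraries, and the Purkinje cell gene *Pcp2* was at or under the floor in all 10 libraries.

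Other genes of the same pathways were called in both directions, counted here without the 7 genes. Over all 23324 genes, 792 were called higher and 1646 lower, which is the background for each of the lists that follow. Among 13 other AMPA receptor subunits and auxiliary proteins, 4 were higher and 3 lower in control GLASTpos astrocytes, with a median log2 fold change of 1.06. *Cacng5*, a transmembrane auxiliary subunit, was the largest at 1277 against 116 CPM (3.46, SE 0.35, adjusted p = 7.2e-12). The GluA2 gene *Gria2* was among the 3 called lower, with *Gsg1l* and *Pick1*. Of 24 other WNT pathway genes 4 were higher and 7 lower, with the receptor gene *Fzd2* at 21.4 against 365 CPM (-4.09, SE 0.44, adjusted p = 5.7e-11) and the secreted inhibitor *Sfrp5* at 62.6 against 809 CPM (-3.69, SE 0.50, adjusted p = 4.1e-08), opposite to *Wif1*.

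Of 29 other genes of the TGF-beta and BMP pathway 3 were higher and 6 lower, with the signal transducer *Smad3* at 174 against 20.6 CPM (3.08, SE 0.39, adjusted p = 5e-09) and the ligand *Bmp7* at 1.70 against 20.7 CPM (-3.51, SE 0.76, adjusted p = 0.00044). Among 15 other metalloproteinases and inhibitors 1 was higher and 3 lower, with *Adamts1* at 337 against 38.8 CPM (3.11, SE 0.35, adjusted p = 1.3e-10). The medians of the WNT, TGF-beta and metalloproteinase lists were -0.76, 0.14 and -0.41.

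Within the hindbrain, none of the 7 genes was called between a stage of EAE and controls. Few of all genes were called either, so these counts of 0 do not show that the 7 genes were unchanged. In GLASTpos astrocytes 0 of 7 passed at E1, E4 or Ech, beside 1.49%, 2.03% and 1.31% of all genes. At an unadjusted p under 0.05 there were 0, 2 and 2 of the 7, beside 4180, 4395 and 4463 of all 23324 genes. In GLASTneg astrocytes 0 of 7 passed at each stage, beside 0.643%, 0.729% and 0.193% of all genes. At an unadjusted p under 0.05 there were 0 of the 7 at each stage, beside 2233, 2059 and 1783 of all genes. DESeq2 likewise called 0 of 7 in all 6 comparisons. Log2 fold changes of the set ranged from -0.28 to 0.36 at E1, from -0.61 to 0.41 at E4 and from -0.97 to 0.00 at Ech in GLASTpos astrocytes. In GLASTneg astrocytes they ranged from -0.63 to 0.82 over the 3 stages, with the largest for *Gdf10* at E4 (0.82, SE 0.43, adjusted p = 0.59).

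The values nearest to a call were those of *Gria4* in GLASTpos astrocytes. Controls spanned 1181 to 1471 CPM, E1 libraries 706.6 to 1450 CPM, E4 libraries 717.3 to 989.1 CPM and the 4 Ech libraries read 328.9, 685.2, 873.6 and 777.6 CPM. Every E4 and Ech library was therefore under every control library. The log2 fold change was -0.61 (SE 0.25, adjusted p = 0.18) at E4 and -0.97 (SE 0.29, adjusted p = 0.062) at Ech, and neither was called. The Ech value depended on single libraries, at -0.75 (adjusted p = 0.23) without replicate 1 and -1.13 (adjusted p = 0.045) without replicate 3. *Hopx* at E4 was at 386.8 to 565.6 CPM against 610.6 to 874.4 CPM (-0.52, SE 0.25, adjusted p = 0.23), and *Timp4* at Ech was at 673.5 to 1598 CPM against 1874 to 2062 CPM (-0.72, SE 0.32, adjusted p = 0.21). Both were without overlap and not called.

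Ech GLASTpos replicate 1 was the lowest of its group for all 7 genes and E4 GLASTpos replicate 1 for 5 of 7. In the Ech library, summed parenchymal astrocyte genes were 15190 CPM against 8024 to 10850 CPM in the other 3, summed oligodendrocyte genes 4399 against 2270 to 2906 CPM and *Slc1a3* 4595 CPM, the lowest of the group. In the E4 library, summed T cell genes were 354 CPM against 17.4 to 94.8 CPM in the other 5 and summed myeloid genes 473 against 122 to 265 CPM. T cell genes summed to 0 to 3.92 CPM in control GLASTpos libraries. At E4, 3 of 6 were called higher, beside 388 of all 23324 genes. Oligodendrocyte genes were higher at Ech in general, at 2270 to 4399 CPM against 1170 to 1336 CPM in controls. Of these, 8 of 10 were called, beside 306 of all 23324 genes called in either direction. The part of these marker genes in the lower *Gria4*, *Hopx* and *Timp4* values was not tested. Over the 21 GLASTpos libraries with group means removed, the 21 pairs of member genes had a median Pearson's r of 0.50 and 18 were positive, from -0.16 for *Wif1* with *Timp4* to 0.88 for *Mybpc1* with *Gria1*. The libraries share sorts and depth, and these values are a description.

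The responses of the hindbrain populations were set against each other as an interaction in the same fit. None of the 7 genes was called in this interaction at E1, E4 or Ech, beside 0.00857%, 0.00857% and 0.06% of all genes. With so few calls over all genes, this count does not show that the responses were alike. At an unadjusted p under 0.05 there were 0, 0 and 1 of the 7, beside 2083, 2091 and 2618 of all 23324 genes. DESeq2 called 0 of the 7 at each stage. The largest difference was that of *Gria4* at Ech, where GLASTpos minus GLASTneg was -0.96 (SE 0.38, adjusted p = 0.3).

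Spinal cord and hindbrain GLASTneg astrocytes of unimmunized mice differed in 4 of the 7 genes, all lower in cord, beside 4.2% of all genes called in either direction. All 5 control cord libraries had S numbers of 60 to 83, and all control hindbrain GLASTneg libraries had numbers of 56 or lower. S number and region therefore cannot be told apart in this comparison. The median of the set was -1.69, or -1.21 with *Wif1* at its bound, against 0.00 over all genes. *Gdf10* averaged 4.95 ± 5.68 CPM in cord and 75.7 ± 27.3 CPM in hindbrain (log2 fold change -3.89, SE 0.54, adjusted p = 1.4e-07, and -4.92 without control cord replicate 3, still called). *Mybpc1* averaged 8.06 ± 4.03 and 26.5 ± 11.1 CPM (-1.72, SE 0.41, adjusted p = 0.0035; SD, n = 5 for each gene and group). *Gria1* averaged 165 ± 61.7 and 534 ± 48.4 CPM (-1.69, SE 0.28, adjusted p = 8.1e-06). *Wif1* had 0 counts in all 22 cord libraries and was called at an adjusted p of 6.2e-05. Against the floor of 3 counts per library in control cord it was at least 2.31-fold higher in hindbrain GLASTneg and at least 39.2-fold higher in hindbrain GLASTpos astrocytes.

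*Gria4* and *Timp4* were lower in every control cord library than in any control hindbrain GLASTneg library, but were not called (-0.74, adjusted p = 0.1, and -0.77, adjusted p = 0.13). *Hopx* differed least (-0.38, SE 0.27, adjusted p = 0.48). With the number in brackets of the library titles, taken as a possible animal number, as a block in limma, *Gdf10* (adjusted p = 0.42) and *Mybpc1* (adjusted p = 0.2) lost their calls. That setting, used below as well, changed the test along with adding the block, and the part of each cannot be told apart. All 10 oligodendrocyte genes and all 4 genes of their precursors were called higher in cord, beside 610 of all 23324 genes. Oligodendrocyte sums were 14360 to 41870 CPM against 1470 to 5103 CPM. The part of these marker genes in the differences of the set was not tested.

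In the cord, *Gria1* and *Timp4* were lower and *Mybpc1* was higher during EAE, and *Hopx*, *Gria4* and *Wif1* were called at no stage. *Gria1* measured 226.6, 102.7, 100.3, 222.0 and 175.0 CPM in controls, 50.53, 53.32, 11.06, 32.2 and 46.39 CPM at E1, 0, 8.536, 8.305, 14.39, 7.506 and 8.437 CPM at E4, and 11.29, 16.2, 27.7, 12.72, 10.79 and 13.97 CPM at Ech. Every library of a diseased mouse was under every control library, and 5 of the 6 E4 libraries were under every E1 library. Log2 fold changes were -2.09 (SE 0.29, adjusted p = 1.9e-07) at E1, -4.36 (SE 0.30, adjusted p = 1.1e-19) at E4 and -3.40 (SE 0.28, adjusted p = 2.5e-16) at Ech. With the bracket number as a block in limma the E1 value was no longer called (adjusted p = 0.065). The S number of the titles was 56 or lower in 0 of 5 control and 5 of 6 E4 cord libraries. With it as a covariate the E4 value was -3.70 (adjusted p = 7.5e-12).

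*Timp4* measured 384.7, 404.8, 253.7, 405.4 and 479.6 CPM in controls, 172.0, 352.8, 56.09, 62 and 111.6 CPM at E1, 64.87, 57.5, 58.91, 58.74, 37.53 and 38.19 CPM at E4, and 29.86, 95.07, 114.4, 31.35, 121.4 and 84.38 CPM at Ech. E4 and Ech did not overlap the controls, whereas E1 replicate 2 lay among them. Log2 fold changes were -1.36 (SE 0.30, adjusted p = 0.0013), -2.87 (SE 0.30, adjusted p = 1.4e-12) and -2.28 (SE 0.29, adjusted p = 2.1e-09). Without E1 replicate 2 the first was -1.94 (adjusted p = 9.9e-07).

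*Mybpc1* went the other way. It measured 5.453, 2.296, 11.75, 10.05 and 10.76 CPM in control cord, 15.68, 9.115, 5.925, 4.11 and 34.58 CPM at E1, 34.41, 43.58, 16.61, 50.57, 6.824 and 18.21 CPM at E4, and 46.8, 48.3, 36.37, 14.99, 72.55 and 26.57 CPM at Ech. Only the Ech libraries all lay above the controls. The log2 fold change was 0.80 (SE 0.41, adjusted p = 0.2) at E1, or 0.13 (adjusted p = 1.0) without E1 replicate 5, and it rose by 1.78 (SE 0.40, adjusted p = 0.00037) at E4 and by 2.33 (SE 0.40, adjusted p = 4.3e-06) at Ech. With the bracket number as a block in limma the E4 value was 1.47 and not called (adjusted p = 0.21). Even at Ech its mean of 40.9 ± 19.9 CPM (SD, n = 6) was under the lowest hindbrain GLASTpos library, at 114.9 CPM.

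The other genes moved little or were too low to follow. *Gdf10* averaged 4.95 CPM in control cord and 2.30, 1.84 and 1.17 CPM at E1, E4 and Ech, at or near the floor, and only its Ech value was called (-2.12, SE 0.63, adjusted p = 0.011). That call rested on control replicate 3, which held 49 of the 73 control counts, and without it the value was -1.11 (adjusted p = 0.29), against -3.06 (adjusted p = 0.0011) without Ech replicate 6. In limma with the bracket number as a block it was lost as well (adjusted p = 0.79). Without E1 replicate 2, *Gdf10* was called lower at E1 too (-2.42, adjusted p = 0.017). *Gria4* averaged 101 ± 12.8 CPM in controls and 61.7 ± 16.1, 56.7 ± 22.7 and 99.8 ± 40.0 CPM at the 3 stages (SD, n = 5, 5, 6 and 6). Its log2 fold changes were -0.71 (adjusted p = 0.089), -0.84 (adjusted p = 0.012) and -0.01 (adjusted p = 1.0), none past the fold threshold, though without E4 replicate 1 the E4 value was called at -1.02 (adjusted p = 0.002). *Hopx* averaged 56.7, 57.1, 42.4 and 87.7 CPM and was not called at any stage (adjusted p = 0.074 at Ech), where its libraries spread from 32.2 to 154.0 CPM.

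The set held 2 genes called lower and 0 higher at E1, 2 lower and 1 higher at E4 and 3 lower and 1 higher at Ech, beside 6.17%, 17.9% and 14.7% of all genes called in either direction. The median log2 fold changes of the 6 genes other than *Wif1* were -0.99, -1.13 and -1.07, against 0.00 over all genes at each stage.

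**Figure D4:**
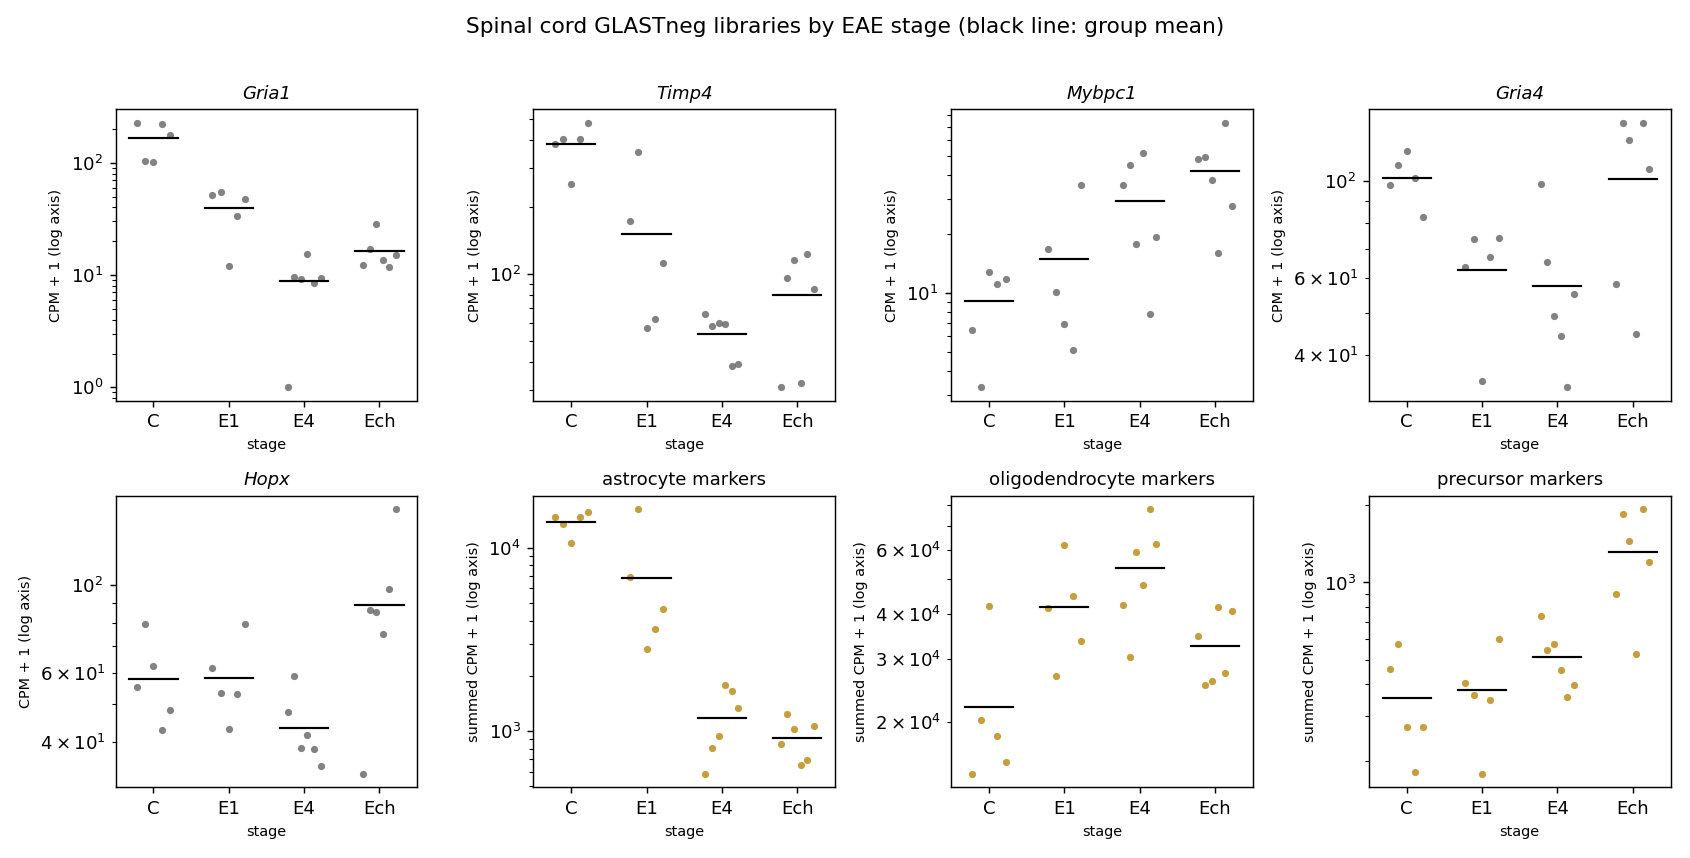
Levels of *Gria1*, *Timp4*, *Mybpc1*, *Gria4* and *Hopx*, as CPM + 1 on a log axis, and summed levels of the marker genes of parenchymal astrocytes, oligodendrocytes and oligodendrocyte precursors, as summed CPM + 1 on a log axis, in spinal cord GLASTneg libraries of controls and at E1, E4 and Ech. Points are libraries and black lines are group means. *Gria1* and *Timp4* lie lower at E4 and Ech than in any control, and *Mybpc1* lies higher at Ech than in any control.

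Marker genes of several cell types moved with the stage in cord libraries, where fewer cells of a type and less RNA per cell cannot be told apart. The background for their counts was 858, 2598 and 2233 of all 23324 genes called lower at E1, E4 and Ech, and 582, 1586 and 1203 higher. *Atp1b2*, whose product was the sort antigen, spanned 5175 to 7706 CPM in controls, 1332 to 9215 CPM at E1, 103 to 599 CPM at E4 and 228 to 609 CPM at Ech. The 10 parenchymal astrocyte genes summed to 10560 to 15710 CPM in controls, 2800 to 16150 CPM at E1, 581 to 1775 CPM at E4 and 651 to 1237 CPM at Ech, with 6, 9 and 10 of 10 called lower. E1 replicate 2, the library with *Timp4* at the control level, had the highest sum at E1. The 10 oligodendrocyte genes summed to 14360 to 41870 CPM in controls and to 26910 to 62070, 30360 to 77680 and 25390 to 41610 CPM at the stages, with 4, 8 and 2 called higher. The 4 precursor genes rose at Ech, to 526 to 1927 CPM from 181 to 576 CPM. Summed myeloid genes were 20.7 to 58.5 CPM in controls, 53.5 to 192 CPM at E1 and 70.7 to 239 CPM at Ech, with a median of 215 CPM at E4, where replicate 2 reached 6510 CPM. The part of these changes in the lower *Gria1* and *Timp4* and the higher *Mybpc1* was not tested. Without E4 replicate 2 the E4 values were -4.38 for *Gria1*, -2.91 for *Timp4* and 1.61 (adjusted p = 0.0018) for *Mybpc1*, and *Gdf10* was called lower (-1.88, adjusted p = 0.033).

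Companion genes in the cord were called in both directions. Of all 23324 genes, 858, 2598 and 2233 were called lower at E1, E4 and Ech and 582, 1586 and 1203 higher. Of the 13 other Bergmann glia genes 7, 11 and 8 were called lower at E1, E4 and Ech and 0, 2 and 1 higher, with *Sept4* and *Vim* the 2 that were higher at E4. Of the 13 AMPA receptor genes other than *Gria1* and *Gria4*, 3, 6 and 2 were lower and 1, 3 and 4 higher. *Cacng5* was higher than in controls (12.6 CPM) at E1, with 48.6 CPM (1.96, adjusted p = 5.6e-05), and at Ech, with 83.3 CPM (2.73, adjusted p = 2.4e-09). Of the 24 other WNT genes 5, 10 and 9 were lower and 0, 1 and 0 higher. Of the 29 other TGF-beta and BMP genes 5, 8 and 5 were lower and 0, 1 and 0 higher. Of the 15 other metalloproteinases and inhibitors 2 were lower at each stage and 1, 1 and 3 higher, with *Mmp16* at Ech at 168 against 21.8 CPM (2.93, SE 0.54, adjusted p = 1.9e-05).

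In hindbrain GLASTpos astrocytes few companion genes were called. *Fabp7*, a fatty acid binding protein gene of radial and Bergmann glia, was lower at E4, at 51.4 against 331 CPM (-2.68, SE 0.51, adjusted p = 0.00035). *Timp1*, an inhibitor of metalloproteinases like *Timp4*, was higher at E1, at 29.6 against 1.87 CPM (3.93, SE 1.06, adjusted p = 0.034). At Ech *Cacng2*, an AMPA receptor auxiliary subunit gene, was higher at 298 against 78.3 CPM (1.93, adjusted p = 0.013), together with *Gria2* and *Gria3*. Genes of granule and Purkinje neurons summed to 242 to 497 CPM in these Ech libraries and to 66.6 to 207 CPM in controls, without overlap. Of these, 2 of 10 (*Snap25* and *Syt1*) were called higher, beside 283 of all 23324 genes. The part of the neuronal genes in the higher AMPA receptor genes was not tested.

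Genes whose levels ran most like the mean of the set over the 66 EAE libraries included *Slc38a1* (Pearson's r 0.98), *Ctxn3* (0.97), *Dpy19l3* (0.96) and *Gucy1a1* (0.96), among 10964 genes that averaged 5 CPM or more. *Slc38a1*, a transporter of glutamine, spanned 1271 to 3670 CPM in hindbrain GLASTpos libraries and 17.8 to 446 CPM elsewhere. Over the 15 isolated FVB/N libraries the closest were *Ccn3* (0.97), *Cd70* (0.96), *Marcks* (0.96), *Pdlim3* (0.95) and *Frrs1l* (0.95). The libraries within a group share a sort, and these correlations describe the order of the groups.

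Cultured astrocytes of newborn mice had the lowest mean of all groups of the subtype experiment for 5 of the 7 genes, and not for *Gria1* or *Wif1*. Against the mean of the 5 isolated FVB/N groups 5 of 7 genes were called lower, beside 31.7% of all 17126 genes called in either direction. The isolated side includes the libraries on which the set was selected, so this count is a description from which nothing is read and no p-values are given. The cultures came from cerebrum only, and no sort by surface protein is described for them. The effects of strain, of age, of region, of sorting and of culture cannot be told apart. *Gdf10* averaged 5.44 ± 2.51 CPM in culture, against means of 12 to 88.6 CPM in the 4 isolated groups other than the highest, and *Timp4* 107 ± 41.2 CPM against 564 to 884 CPM (SD, n = 3). *Hopx* averaged 20.7 CPM against 88.02 to 161 CPM and *Gria4* 4.39 CPM against 5.02 to 135 CPM. *Mybpc1* was at or under the floor in all 3 cultured libraries. *Gria1* stood at 179 ± 55.3 CPM, within the means of 85.6 to 210.5 CPM of the same 4 groups, and *Wif1* at 1.10 CPM against 0 to 5.37 CPM. Only *Hopx* and *Timp4* had no overlap between cultured and isolated libraries.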

How the data were processed

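RNA was measured by 3′ sequencing (QuantSeq FWD, single reads) in 66 libraries of the EAE experiment and 18 of the subtype experiment. All were of sorted astrocytes except the cultured libraries of the subtype experiment. Per the labels and the study's methods, the authors aligned reads to GRCm38 with HISAT 0.1.5, sorted them with SAMtools and counted them per gene with HTSeq 0.6.1p1 in union mode, and they deposited raw counts, 1 table per experiment, without normalization or pooled columns. All values were whole numbers, no library pair was identical and 0 columns were without a sample. Identifiers were matched to GRCm38 symbols for 48058 of 48526 and 25608 of 25773 genes.

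Groups came from the sample labels. One cord library at E1 carries a hindbrain entry in another field, and its title was used. Counts were tested with edgeR 4.0.16 (R 4.3.3), TMM scaling and a minimum total of 10 counts, on 23324 and 17126 genes, each experiment in 1 fit with group as the only term. The study itself used DESeq2, tried here as an alternative (version 1.42.0). Errors are log2 fold changes divided by the square root of F. The 3-count floor and a pseudocount of 1 CPM were used for description. Where nothing states separate animals, p-values measure the spread between libraries only. Depth was 1313682 to 4895220 counts in EAE libraries (median 2936680), and FVB/N libraries were shallower (median 907710), so low genes such as *Wif1* are less precise there.

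The 7 genes and all companion and marker lists were chosen with earlier results of these data known. Named companion genes were, for each list, at most the 3 called genes with the largest absolute log2 fold change and a mean of at least 5 CPM. Genes most like the set were the 5 with the highest Pearson correlation of log2(CPM + 1) with its mean standardized level. Some genes that these rules name are not reported here. Alternatives were DESeq2, RLE factors, no filter, filterByExpr, the replicate number as a block, the bracket number of the titles as a random block (limma 3.58.1, 33 numbers), the S number of the titles, whose meaning the labels do not give, as a covariate in cord, and each library left out, where kept genes and the trended dispersion of the full fit were reused. Python 3.11.15 with numpy 2.4.6, pandas 2.3.3 and matplotlib 3.10.9 made summaries and figures.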

Additional observations from a re-analysis of the deposited data

Results flagged for a closer look

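Among 80 groups of 4 or more libraries, one for each gene and EAE group, leaving out *Wif1* in cord where every library was at 0, 6 held a library that stood apart from the rest of its group by Dixon's test, where chance gives about 1 in 20. *Wif1* was highest in E4 hindbrain GLASTpos replicate 2, at 109.9 CPM. *Hopx* was highest in control hindbrain GLASTneg replicate 1, at 125.8 CPM. *Gria1* was lowest in E4 hindbrain GLASTpos replicate 1, at 1576 CPM, and highest in Ech cord replicate 3, at 27.7 CPM. *Gria4* was highest in E4 hindbrain GLASTneg replicate 1, at 317.3 CPM, and lowest in E1 cord replicate 3, at 33.97 CPM. For none of the 7 genes did the difference in response to EAE between hindbrain populations reach an adjusted p under 0.05, which does not show like responses.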

How the results depend on the processing

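Of 2394 alternative values of the 7 genes, 2266 kept direction and side of the threshold, 8 lost a call, 13 gained one and 0 called values turned direction, while 107 changed sign where neither value was called. The number of the 7 genes called moved by more than 1.5 times in 3 settings. With the bracket number as a block in limma, control cord against hindbrain GLASTneg gave 2 in place of 4 and cord at E1 gave 1 in place of 2. This setting changed the test from edgeR to limma as well as adding the block, so the part of each cannot be told apart. The estimated correlation within a bracket number was 0.038. Where a title held a second such number, only the first was used. Leaving out 1 library gave 0 to 1 for hindbrain GLASTpos at Ech, the 1 being *Gria4* without Ech replicate 3. Leave-one-out counts were 6 to 7 for the populations at Ech, 2 to 3, 3 to 4 and 3 to 4 for cord at E1, E4 and Ech, and 4 to 5 for cultured astrocytes.

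Replicate numbers did not pair libraries: same-numbered libraries had a mean correlation of -0.0044 over 340 pairs after removal of group means, against 0.001 for other pairs, and bracket numbers had 0.0421 over 40 pairs. With the replicate block the populations gave 7, 7, 7 and 7 called genes, with *Timp4* at Ech now called (1.01, adjusted p = 0.012), control cord against hindbrain 4, and cord at E1, E4 and Ech 2, 3 and 4. The replicate block gave 0 for every hindbrain stage and interaction and 5 for cultured astrocytes.

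Counts over all genes behind the background shares varied more. DESeq2 called 567 in place of 347 genes in hindbrain GLASTpos at E1, 678 in place of 306 at Ech, 238 in place of 150 in GLASTneg at E1 and 92 in place of 45 at Ech, and 17, 16 and 56 in place of 2, 2 and 14 for the interactions. Without a filter the GLASTpos Ech, GLASTneg E1 and GLASTneg Ech counts were 480, 239 and 97 and the interactions 9, 10 and 50. The bracket block in limma gave 489 for GLASTpos Ech, 15 for GLASTneg Ech and 4 for the E4 interaction, and the replicate block 8 for the Ech interaction. The S number as a covariate gave 2106 in place of 4184 in cord at E4, and filterByExpr 3614 in place of 5424 in cultured astrocytes, where DESeq2 called 2155 higher and 1862 lower in place of 3989 and 1435. S numbers up to 56 held all hindbrain GLASTneg and those above it all GLASTpos libraries, so that S number and population cannot be told apart. The same holds for S number and region in control cord against hindbrain GLASTneg. The causes were not tested. In cord *Wif1* had 0 counts and *Gdf10* lay at or near the floor, where 3 counts came to at most 1.36 to 1.69 CPM, depending on the group.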
